A study of Mus musculus with 15 samples.

Results

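The neutrophil granule and myeloid progenitor transcripts Prtn3, Elane, Mpo, Ctsg, Ngp, Camp, Ltf, S100a8 and S100a9 were followed in mouse liver. All 9 were found by symbol among the 55450 genes counted. They were picked with their levels in the liver of old and younger mice already known, so the difference between those ages is given as a description, without a test. Liver mRNA was sequenced from 15 female C57BL/6 mice, 5 per group, with 1 library per animal. Adult animals, named A1 to A5 here, are labelled as 6 months old, and Old animals, O1 to O5, as 22 months old. Both were given corn oil as vehicle. Animals of the PDX group, P1 to P5, are also labelled as 22 months old and were gavaged each day with protectin DX, a lipid mediator derived from docosahexaenoic acid, in that oil. The dose was 30 ng for each gram of body weight, and gavage lasted 9 weeks per the sample labels. The study's methods give these ages for the start of the experiment, so the mice were older when the livers were taken. No transgene or deletion was carried by any group, and no animals were pooled.

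Neutrophils arise in the bone marrow from myeloid progenitors, and their granules are filled in the order in which granule genes are switched on and off. Promyelocytes make the azurophil granule proteins, which include myeloperoxidase and the serine proteases elastase, proteinase 3 and cathepsin G. Myelocytes and metamyelocytes then make the specific granule proteins lactoferrin, cathelicidin and neutrophilic granule protein, while the calgranulins S100a8 and S100a9 are abundant in the cytosol of mature neutrophils and are also made by monocytes. Mature neutrophils in blood carry granule proteins but little mRNA of the azurophil genes. The adult liver is not normally a main site of granulocyte production, although it formed blood cells before birth.

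Total counts per mouse ranged from 22424383 to 36070835 (median 27236065). Levels are given as CPM, the count relative to library size, scaled with TMM factors, which correct for differences in the composition of libraries. A pair of Old mice stood apart. O2 had the highest TMM factor (1.33, against 0.884 to 1.08 in the other mice) and the highest level of 8 of the 9 genes among all 15 mice, and O5 had the lowest summed CPM of hepatocyte markers (77608, against 104028 to 242325 in the other mice). Albumin and the other hepatocyte markers were abundant in every liver, as the tissue label says. Because the libraries are from bulk tissue, more cells of a type and more RNA per cell cannot be told apart.

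The 9 genes lie on 5 chromosomes (GRCm38 coordinates). Prtn3 (chr10:79874476-79883174) and Elane (chr10:79886247-79888215) are neighbours on the plus strand with 3073 bases between them. S100a8 (chr3:90668978-90670035, plus strand) and S100a9 (chr3:90692632-90695721, minus strand) are neighbours as well, and Camp, Ngp and Ltf lie on chromosome 9 at 109847379, 110419747 and 111019271. Mpo is on chromosome 11 (start 87793581) and Ctsg on chromosome 14 (start 56099881). All 9 had a promoter entry in RefSeq. The stretches upstream of Prtn3 and Elane are shown because the ratio of these adjacent protease genes varied between mice, and those of Ngp and S100a9 stand for the specific granule genes and the calgranulins. The Prtn3 stretch lies inside the span of a longer processed transcript of the gene. They are RefSeq sequences of build GRCm38.p6, written 5′ to 3′ on the strand of the gene and ended before its first annotated exon in GENCODE M21, with matches to the motifs described next in capitals.
Prtn3, chr10:79879417-79879613, plus strand, 197 bases: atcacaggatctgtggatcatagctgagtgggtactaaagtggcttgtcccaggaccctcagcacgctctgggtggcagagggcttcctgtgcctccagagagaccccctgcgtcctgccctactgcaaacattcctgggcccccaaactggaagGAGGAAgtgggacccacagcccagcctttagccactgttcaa
Elane, chr10:79886062-79886246, plus strand, 185 bases: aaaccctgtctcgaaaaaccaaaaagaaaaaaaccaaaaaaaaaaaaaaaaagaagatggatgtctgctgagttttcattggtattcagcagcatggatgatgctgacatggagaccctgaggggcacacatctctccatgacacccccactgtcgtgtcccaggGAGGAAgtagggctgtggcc
Ngp, chr9:110419558-110419746, plus strand, 189 bases: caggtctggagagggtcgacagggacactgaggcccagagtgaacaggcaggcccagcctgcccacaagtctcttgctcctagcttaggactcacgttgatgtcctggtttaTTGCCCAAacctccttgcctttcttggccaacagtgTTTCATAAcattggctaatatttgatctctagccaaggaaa
S100a9, chr3:90695722-90695971, minus strand, 250 bases: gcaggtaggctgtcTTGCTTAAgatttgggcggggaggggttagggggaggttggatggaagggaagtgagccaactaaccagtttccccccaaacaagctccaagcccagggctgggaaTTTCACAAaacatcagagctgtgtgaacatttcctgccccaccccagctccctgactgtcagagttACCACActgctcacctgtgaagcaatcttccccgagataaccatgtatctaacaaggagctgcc
The letters TTNNGNAA, GAGGAA and TGTGGT, simple forms of motifs of the myeloid factors C/EBP, PU.1 and RUNX, were searched on both strands in the 250 bases upstream of each RefSeq start. GAGGAA was present upstream of 6 of the 9 genes, against 23.3% of all 32851 RefSeq promoters. Each of the 4 azurophil genes carried GAGGAA and lacked TTNNGNAA, whereas TTNNGNAA was found upstream of Ngp, Ltf, S100a8 and S100a9 and in 36.8% of all promoters. TGTGGT occurred upstream of Ctsg and S100a9 (2 of 9, against 14.0% of all promoters). Camp had no match to any of the 3 motifs. Matches of different motifs shared no bases in these 9 promoters. A match is a run of letters in this window and not a shown binding site.

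Prtn3, which encodes proteinase 3, was the azurophil transcript with the highest level per kb of exon in every Old and PDX mouse. It was present at 4, 4, 14, 7 and 4 counts in A1 to A5, or 0.112 to 0.638 CPM. In the Old mice its level was 20.3 CPM in O1, 31.7 in O2, 5.54 in O3, 63.1 in O4 and 3.54 in O5. In the PDX mice it was 75.3 CPM in P1, 127 in P2, 14.7 in P3, 44.8 in P4 and 37.6 in P5. Every Old and PDX mouse was above every Adult mouse, and the Old and PDX ranges overlapped. The group means were 0.253 ± 0.224 CPM in Adult, 24.8 ± 24.3 in Old and 59.8 ± 43.3 in PDX (SD, n = 5 each). O4 was the highest Old mouse for Prtn3, whereas O2 was the highest for each of the other 8 genes.

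Elane, the neutrophil elastase gene, was detected at 0 to 3 counts per Adult mouse (8 counts over the 5 mice, exact Poisson 95% interval 3.45 to 15.8, counting error only). Its level was 1.15 CPM in O1, 6.73 in O2, 0.415 in O3, 0.632 in O4 and 0.469 in O5. In the PDX group it was 1.5 CPM in P1, 3.65 in P2, 1.01 in P3, 2.39 in P4 and 0.619 in P5. All 10 Old and PDX mice were above the Adult mice, and O2 was 5.87 times the next Old mouse.

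Mpo encodes myeloperoxidase, the heme enzyme that makes hypochlorous acid and serves as a marker of granulocyte progenitors. Adult mice had 1 to 3 counts each. The Old mice had 0.680, 19.9, 1.66, 1.15 and 1.62 CPM in O1 to O5, and the PDX mice had 0.671, 9.84, 1.58, 4.39 and 1.07 CPM in P1 to P5. There was no overlap with the Adult mice, and O2 was 12.0 times the next Old mouse. Ctsg, the cathepsin G gene, was the lowest of the 9. It was at 0 counts in 3 of the 5 Adult mice and at 1 and 3 counts in the others, at 5, 78, 4, 6 and 11 counts in O1 to O5 and at 3, 36, 2, 25 and 5 counts in P1 to P5. A count of 0 allows up to 3 counts per library, counting error only. Ctsg did not pass the low-count filter and is not in the main fit. Without the filter its log2 fold changes in edgeR were 4.38 (SE 1.16) between Old and Adult, 4.09 (SE 1.16, adjusted p = 0.105) between PDX and Adult and -0.29 (SE 0.88, adjusted p = 0.955) between PDX and Old. DESeq2 gave 4.29 (SE 1.21, adjusted p = 0.0108) between PDX and Adult. All Old mice were above all Adult mice, and P3 (0.0631 CPM) lay below A4 (0.110 CPM).

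**Figure D1:**
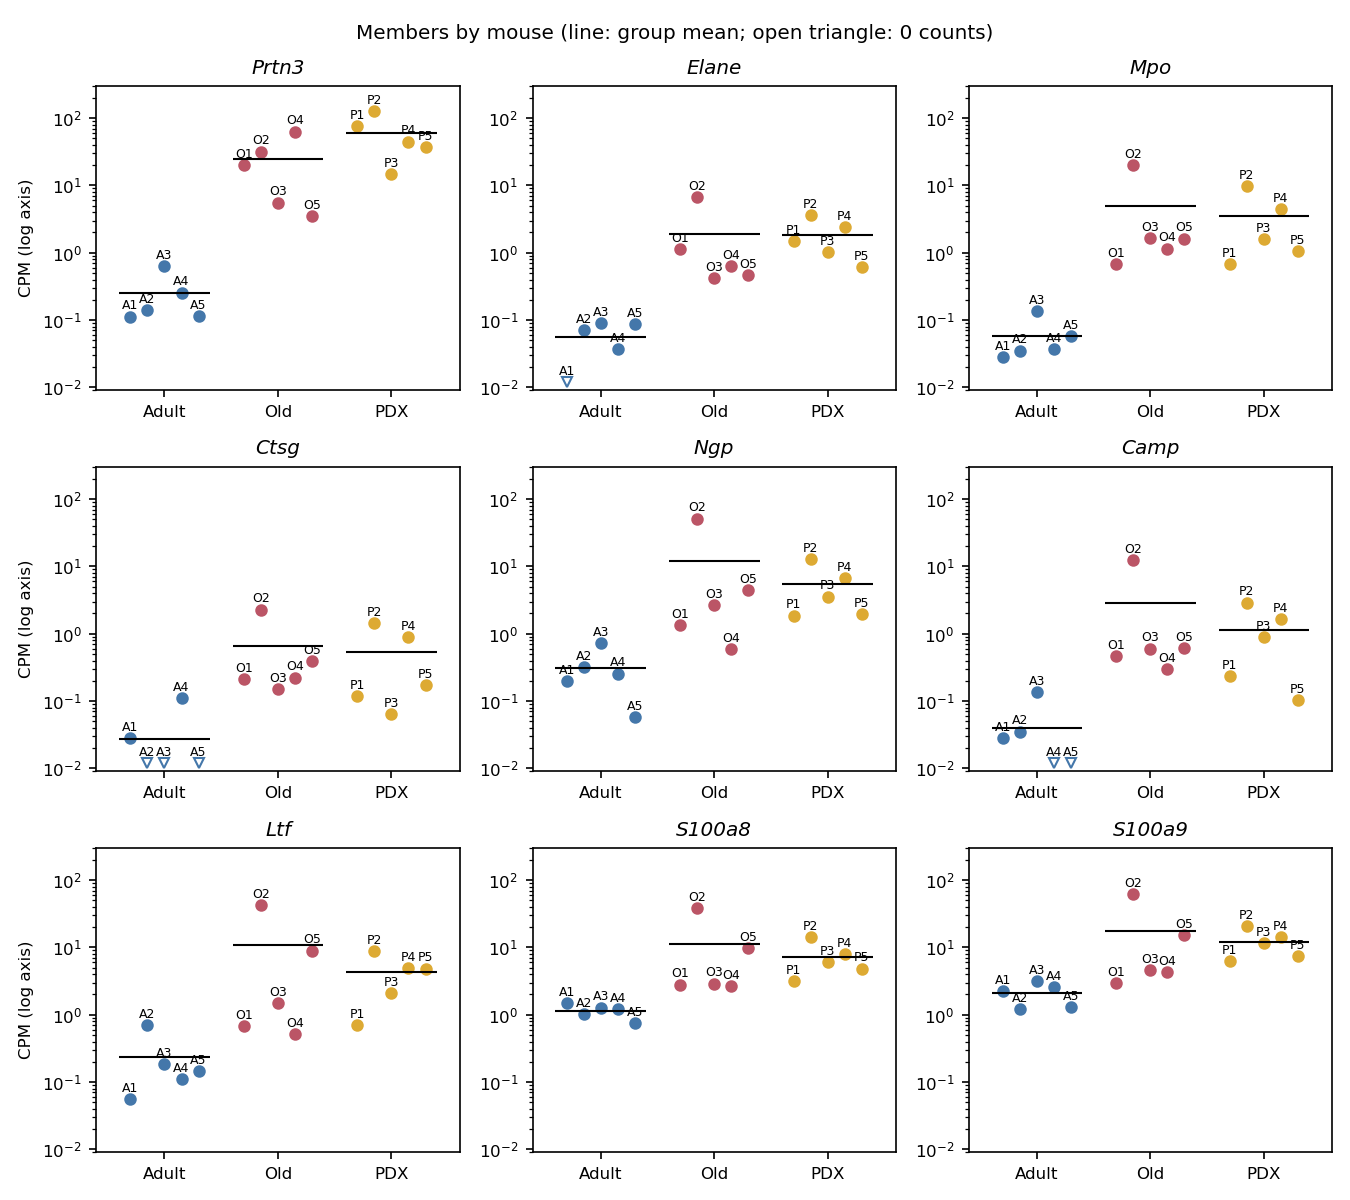
Level of each of the 9 genes in each mouse (CPM, log axis) by group, with black lines at the group means and open triangles for mice at 0 counts, placed at a fixed height. O2 is the highest mouse in every panel except that of Prtn3, where P2 (127 CPM) is highest, and P2 is the highest PDX mouse in all 9 panels.

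The ratio between these promyelocyte genes was not constant across mice. Prtn3 gave 4.72 counts per Elane count in O2, 7.54 in O5, 13.4 in O3, 17.7 in O1 and 99.9 in O4. In the PDX mice the same ratio was 50.2 in P1, 34.7 in P2, 14.5 in P3, 18.7 in P4 and 60.7 in P5. Against Mpo the spread was wider, from 1.59 Prtn3 counts per Mpo count in O2 to 54.8 in O4 and 112 in P1. Prtn3 made up 52.3% to 96.9% of the summed counts of the 4 azurophil genes in Old mice (median 71.4%) and 84.7% to 97.0% in PDX mice (median 89.5%), ranges that overlapped. In the Adult mice, with 6 to 19 azurophil counts per mouse, it was 44.4% to 73.7%. The Prtn3 gene model includes a processed transcript that starts upstream of the coding transcript and overlaps Plppr3 on the other strand. Counting was stranded, and Plppr3 itself had 4 to 59 counts per mouse, with 50 in O5, the lowest Old mouse for Prtn3, and 25 in O4, the highest.

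**Figure D2:**
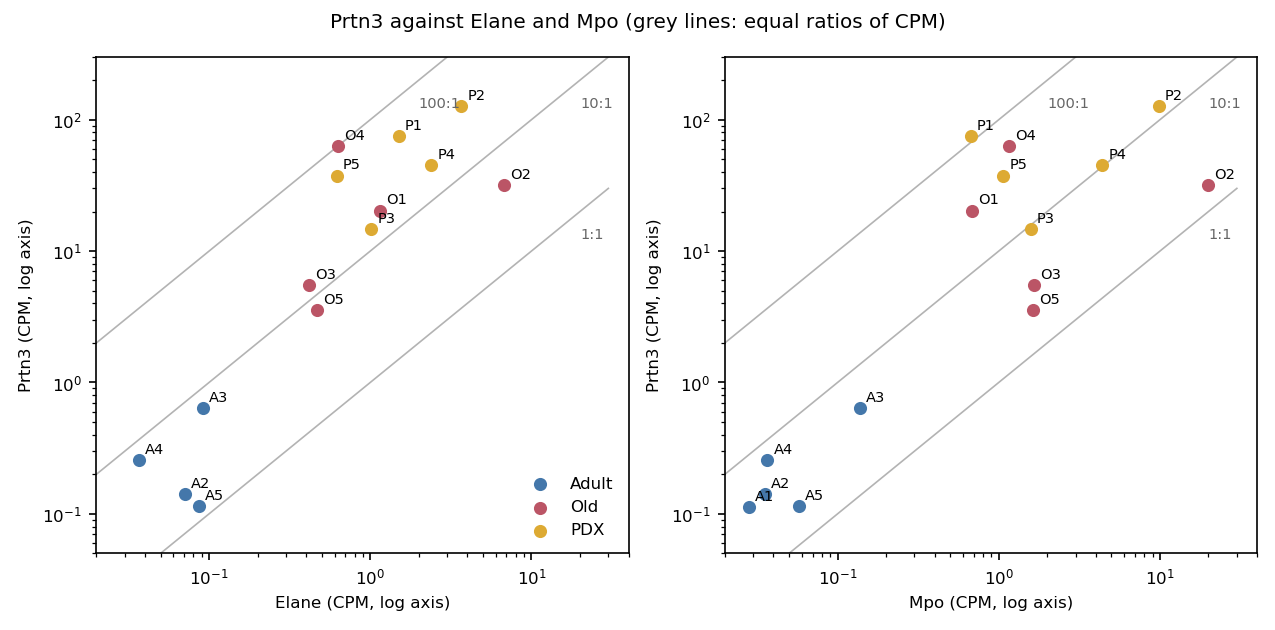
Prtn3 level against Elane (left) and Mpo (right) in each mouse (CPM, both axes log), with grey lines at equal ratios, and without A1 on the left, where Elane was at 0 counts. The ratio to Elane is 99.9 in O4 and 4.72 in O2, and the ratio to Mpo is 112 in P1 and 1.59 in O2.

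Ngp, Camp and Ltf encode the specific granule proteins neutrophilic granule protein, the cathelicidin CRAMP and lactoferrin. Among Old mice each was highest in O2 and lowest in O4. Over the 10 Old and PDX mice Pearson's r of Camp with Ltf (log2 CPM) was 0.74. It was 0.27 without O2 and P2, and 0.43 without O2 and O4. For Ngp r was 0.91 with Camp and 0.91 with Ltf, and 0.87 and 0.77 without O2 and O4. Ngp with Camp gave 0.68 without O2 and P2. Ngp was at 0.0574 to 0.730 CPM in Adult mice. Its level was 1.36 CPM in O1, 51.4 in O2, 2.64 in O3, 0.594 in O4 and 4.44 in O5, and 1.85, 12.8, 3.56, 6.75 and 1.96 CPM in P1 to P5. O4 lay below A3, so the Old and Adult mice overlapped, while all PDX mice were above all Adult mice. Camp was at 0 to 3 counts in Adult mice, at 11, 421, 16, 8 and 17 counts in O1 to O5 and at 6, 72, 28, 46 and 3 counts in P1 to P5. O2 held 20.1 times the Camp level of the next Old mouse, and P5 (0.103 CPM) was below A3 (0.137 CPM). Ltf was at 0.0562 to 0.705 CPM in Adult mice, with A2 the highest at 20 counts. It was 0.680 CPM in O1, 42.9 in O2, 1.47 in O3, 0.520 in O4 and 8.98 in O5, and 0.710 to 8.71 CPM in the PDX mice (median 4.85). O1 and O4 lay below A2, and P1 lay just above it.

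S100a8 and S100a9 encode the 2 subunits of calprotectin, which binds calcium and zinc and is released by activated neutrophils. These were the only members with more than 20 counts in every Adult mouse, at 26 to 53 counts for S100a8 and 34 to 80 for S100a9. S100a8 was at 2.80, 38.6, 2.90, 2.64 and 9.74 CPM in O1 to O5 and at 3.16, 14.2, 6.12, 8.00 and 4.85 CPM in P1 to P5, and every Old and PDX mouse was above every Adult mouse. S100a9 was at 2.93, 62.1, 4.60, 4.31 and 15.0 CPM in O1 to O5 and at 6.27, 20.7, 11.5, 14.4 and 7.36 CPM in P1 to P5. For S100a9, O1 fell below A3 (3.15 CPM) and all PDX mice were above all Adult mice. S100a8 contributed 28.9% to 48.9% of the counts of the pair over all 15 mice, a narrow span beside that of the azurophil genes.

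Levels were compared between genes per kb of exon. In Adult mice the mean was 4.00 CPM per kb for S100a9 and 1.65 for S100a8, and at most 0.255 (Ngp) for the other 7. In Old mice S100a9 was highest (34.1 ± 48.3 CPM per kb), followed by S100a8 (16.3 ± 22.4), Prtn3 (14.3 ± 14.0) and Ngp (9.88 ± 18.0) (SD, n = 5). Within mice, S100a9 was above S100a8 in all 15 mice, and so was S100a8 above Ngp, whereas S100a8 was above Prtn3 in 3 of 5 Old mice and Prtn3 above Ngp in 3 of 5. In PDX mice Prtn3 came first (34.5 ± 25.0 CPM per kb), with S100a9 at 23.0 ± 11.1 and S100a8 at 10.5 ± 6.15. Prtn3 was above S100a9 in 3 of 5 PDX mice and above S100a8 in 4 of 5. Mpo, Elane, Camp, Ltf and Ctsg were below 4 CPM per kb on average in each group. The exon length of Prtn3 (1732 bases) counts the processed transcript, which lowers its value on this scale.

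The calgranulins made up most of the counts of the 8 genes other than Prtn3 in Adult mice (65.6% to 91.7%), and 42.6% to 67.0% in Old and 47.0% to 65.6% in PDX mice. Elane, Mpo and Ctsg together took 1.38% to 6.02% in Adult, 6.03% to 19.8% in Old and 8.85% to 20.1% in PDX mice. Their share in O2 was 12.3%, so the mouse with the highest levels did not have the highest share of promyelocyte transcripts. O5 had the lowest share among the Old and PDX mice. Ngp, Camp and Ltf took 45.1% in O2, the highest share of any mouse.

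Between Old and Adult, the contrast known when the genes were picked, fitted log2 fold changes were 6.72 (SE 0.95) for Prtn3, 5.00 (0.98) for Elane, 6.41 (1.25) for Mpo, 5.34 (1.22) for Ngp, 6.20 (1.45) for Camp, 5.51 (1.27) for Ltf, 3.30 (0.74) for S100a8 and 3.10 (0.76) for S100a9. In 6 of the 9 genes every Old mouse was above every Adult mouse, which held for 3.65% of the 15808 genes tested (4.48% had every Old mouse below), and 6.78% of all genes passed the threshold of this comparison in either direction. Nothing is read from that count. The sizes for Elane, Mpo and Camp rest on 5 to 8 counts over all Adult mice. Without O2 the fold change of Prtn3 was 6.63 (0.99), and those of the others fell to between 1.70 (S100a9) and 4.44 (Mpo). Without O2 and O5 it was 7.01 for Prtn3 and between 0.94 (S100a9) and 4.32 (Mpo) for the rest.

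PDX and Adult livers differed past an adjusted p of 0.05 (edgeR's quasi-likelihood test, Benjamini-Hochberg over 15808 genes) for the 3 azurophil genes in the main fit. The log2 fold changes were 7.98 (SE 0.98, adjusted p = 0.000904) for Prtn3, 4.95 (0.98, 0.0153) for Elane and 5.88 (1.24, 0.0204) for Mpo. This made 3 of the 8 genes tested, where 1.76% of all genes were called higher in PDX. The Adult mice are those of the contrast the genes were picked on. In addition 6 of the 8 (all but S100a8 and S100a9) had fewer than 10 counts in some Adult mice and passed the filter through the Old and PDX mice. For these 6 the filter itself favoured higher levels than in Adult. The calls and their count are therefore a description and nothing is read from them. Ngp (4.17, adjusted p = 0.0723), Camp (4.87, 0.0826), Ltf (4.15, 0.0826), S100a8 (2.66, 0.0634) and S100a9 (2.53, 0.0807) did not pass in the same fit. DESeq2 called all 5 of these (adjusted p 0.0019 to 0.0051), the fit with a replicate block called Ltf (edgeR's adjusted p = 0.0128), Camp (0.0497) and Ngp (0.0499), and limma on the deposited values ended the call for Mpo (adjusted p = 0.0537). In 7 of the 9 genes every PDX mouse was above every Adult mouse, against 10.5% of all genes tested (9.34% had every PDX mouse below), and 20.6% of all genes had an unadjusted p under 0.05. Leaving O2 out of the shared estimate of spread left the fold changes between PDX and Adult nearly as they were (2.53 to 7.99), and all 8 then passed (edgeR's adjusted p 0.00064 to 0.0132). Leaving out A1, A2, A4, A5 or P2 ended the call for Mpo (edgeR's adjusted p 0.0538 to 0.0668), while Prtn3 and Elane passed whichever mouse was left out.

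PDX was compared with Old to ask whether treatment of old mice changed these transcripts. None of the 8 genes fitted passed the threshold, and of all 15808 genes 0 passed it in edgeR, with 834 at an unadjusted p under 0.05 (5.28%) and 1 call by DESeq2. In 0 of the 9 genes were the groups apart, where 0.145% of all genes had every PDX mouse above and 0.196% every PDX mouse below every Old mouse. The Old mice are shared with the contrast between Old and Adult. Prtn3 was 1.27 higher on the log2 scale in PDX (SE 0.68, edgeR's adjusted p = 0.793), and 4 of 5 PDX mice were above the Old mean. The other 7 had fold changes from -0.05 (SE 0.73, Elane) to -1.36 (SE 1.01, Ltf), with edgeR's adjusted p from 0.793 to 0.989. Those 7 signs rested on O2. Without it, all 8 fold changes were positive, at 1.36 (SE 0.75) for Prtn3, 1.45 (0.53) for Elane, 1.44 (0.65) for Mpo, 1.25 (0.67) for Ngp, 1.20 (0.76) for Camp, 0.55 (0.83) for Ltf, 0.68 (0.45) for S100a8 and 0.84 (0.47) for S100a9, and none passed (edgeR's adjusted p 0.366 to 0.842). A p that misses the threshold does not show that the groups were alike.

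**Figure D3:**
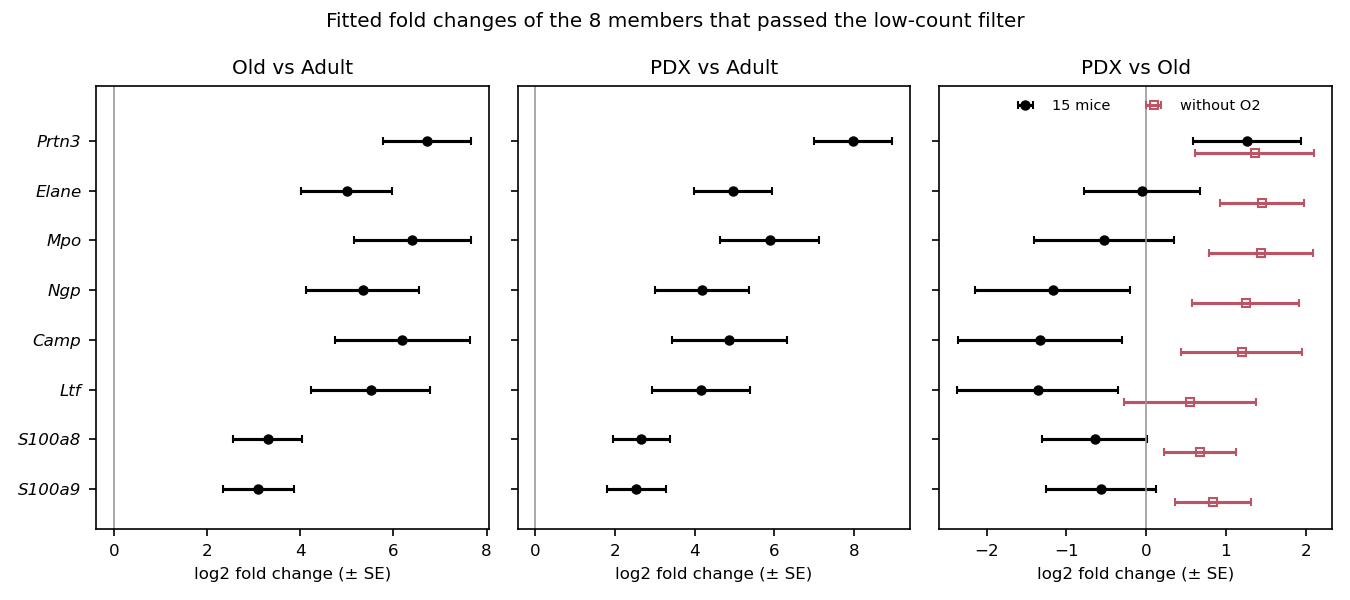
Fitted log2 fold changes (± SE) of the 8 genes with enough counts to be fitted, between Old and Adult, PDX and Adult, and PDX and Old, with red squares for the last comparison without O2. In the right panel 7 of the 8 black points lie below 0 with all 15 mice and all 8 red squares lie above 0.

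Other genes of the same granules and cells were taken from fixed lists, chosen with earlier results of these data known. Some of them had fewer than 10 counts in every Adult mouse, among them Cd177, Mmp8, Clec4e, Clec4d, Trem1, Il1r2 and Mcemp1. These passed the low-count filter through the Old and PDX mice. Counts of calls against Adult are therefore a description and nothing is read from them. Of 40 other granulocyte genes tested, 16 were higher and 2 lower in Old than in Adult (edgeR, adjusted p under 0.05), where 4.71% and 2.07% of all genes were called in each direction, and the median log2 fold change was 2.00, against 0.07 over all genes tested. Between PDX and Adult 5 were higher and 1 lower, with a median of 1.6 against -0.01, and 0 of the 40 passed between PDX and Old. Without O2 the same counts were 10 and 2 for Old and 24 and 2 for PDX, both against Adult. The 18 calls between Old and Adult fell to between 3 and 5 when any 1 Adult mouse was left out, to 2 with the compared groups only and to 3 with the replicate block. The 6 calls between PDX and Adult fell to 2 or 3 without any 1 Adult mouse and to 3 with the block.

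Among 15 other specific and gelatinase granule genes tested, 7 were higher in Old than in Adult, where 4.71% of all genes were called higher. Lcn2, the siderophore-binding lipocalin that hepatocytes also secrete in the acute phase, rose from 15.1 to 404 CPM (log2 fold change 4.74, SE 0.71, edgeR's adjusted p = 0.00416). Chil3, a chitinase-like protein of neutrophils and macrophages, rose from 0.356 to 8.98 CPM (log2 fold change 4.67, SE 0.88, adjusted p = 0.0132), with O5 (22.2 CPM) above O2 (17.6 CPM). Cd177, the surface partner of proteinase 3 on human neutrophils, rose from 0.111 to 1.86 CPM (4.10, SE 0.97, adjusted p = 0.0281). Mmp8, the neutrophil collagenase, rose from 0.127 to 1.27 CPM (3.37, SE 0.90, adjusted p = 0.0386), and the Old and Adult mice overlapped for it alone among these 4. Lcn2, Chil3, Anxa1 and Mcemp1 were also higher in PDX than in Adult (edgeR's adjusted p 0.00182 to 0.0486). Cd177, Mmp8 and Mcemp1 had fewer than 10 counts in every Adult mouse, and Chil3 in some. They passed the filter through the Old and PDX mice, so their p-values are only a description. Leaving out 1 mouse, between 2 and 9 of the list were called between Old and Adult, with 2 or 3 without any 1 Adult mouse and 5 without O2.

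Of 16 mature neutrophil surface and receptor genes tested, 9 were higher in Old and 1, Lrg1, was higher in PDX, both against Adult. Over all genes tested 4.71% and 1.76% were called higher in these comparisons. Clec4e and Clec4d, C-type lectin receptors of myeloid cells, had log2 fold changes of 4.65 (SE 1.04) and 4.21 (SE 0.94) with edgeR's adjusted p = 0.0246 each. Trem1, an amplifying receptor of neutrophils and monocytes, had 4.40 (SE 1.04, adjusted p = 0.0276), with O5 at 2.71 CPM and O2 at 1.55. Il1r2, the decoy receptor for interleukin-1, had 4.14 (SE 1.17, adjusted p = 0.0467) and was led by O5 (4.51 CPM), with O2 at 0.732. O4 was at 0 for Il1r2, so the Old and Adult mice overlapped, as they did for Trem1. Clec4e, Clec4d, Trem1 and Il1r2 had fewer than 10 counts in every Adult mouse. They passed the filter through the Old and PDX mice, so their p-values are only a description. Lrg1, which is also made by hepatocytes, was the most abundant of the list, at 169 CPM in Adult, 821 in Old and 974 in PDX. The count of 9 ran from 1 to 10 leaving out 1 mouse, with 1 or 2 without any 1 Adult mouse, 5 without O2 and 5 without any 1 PDX mouse.

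Of 9 other azurophil and promyelocyte genes tested, 0 were higher in Old and 2 were lower. Over all genes tested 4.71% were called higher and 2.07% lower in Old, and nothing is read from these counts. Leaving out 1 mouse, 0 to 4 were called between Old and Adult. The median log2 fold change was 0.49, with 6 of the 9 above 0. Every PDX mouse was above every Adult mouse for 3 of the 9 and below for 2, against 10.5% and 9.34% of all genes. The 2 called lower in Old, Mgst1 (1977 to 1131 CPM, edgeR's adjusted p = 0.026) and Gstm1 (1425 to 633 CPM, adjusted p = 0.0246), encode glutathione transferases that are abundant in hepatocytes. Ms4a3, a marker of granulocyte-monocyte progenitors, had too few counts to be tested and was at 0 in all Adult mice, at 3, 45, 5, 0 and 4 counts in O1 to O5 and at 1, 10, 3, 14 and 3 counts in P1 to P5, so it was highest in O2, as Elane, Mpo and Ctsg were. Bpi was at 0 counts in all 15 mice. Of 6 NADPH oxidase genes tested, 3 were called higher in Old than in Adult (0 to 6 leaving out 1 mouse) and 0 higher in PDX. Every PDX mouse was above every Adult mouse for all 6, against 10.5% of all genes. Among the 3, Cyba, which encodes a membrane subunit of the oxidase, had a log2 fold change of 1.96 (SE 0.56, edgeR's adjusted p = 0.0491). O2 was at 160 CPM for Cyba, against 14.4 to 26.1 in the other Old mice.

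Among 8 myeloid transcription factors tested, Runx1 (log2 fold change 2.51, SE 0.65, edgeR's adjusted p = 0.0348) and Cebpd (1.52, SE 0.43, adjusted p = 0.0487) were higher in Old than in Adult. Cebpe, needed for the specific granule stage, averaged 6.99 CPM in Adult, 3.92 in Old and 3.16 in PDX, and did not pass (log2 fold change -0.83, SE 0.52, edgeR's adjusted p = 0.314). Of 12 stem and progenitor genes, 1 was lower in Old: Hlf (-0.80, SE 0.22, adjusted p = 0.0398), which hepatocytes also express as a clock output gene. Angpt1 was the 1 higher in PDX than in Adult (2.26, SE 0.48, adjusted p = 0.0218). Of 7 genes tested for G-CSF, chemokines and the interleukin-1 family, Cxcl1, a neutrophil chemoattractant, rose from 8.70 CPM in Adult to 48.9 in Old and 80.9 in PDX (edgeR's adjusted p = 0.00675 and 0.00116). Of 11 inhibitors of neutrophil proteases tested, Serpina1e, Serpinb6a and Timp1 were higher in Old and 0 passed in PDX. Over all genes tested 4.71% were called higher in Old. Timp1 had fewer than 10 counts in every Adult mouse and passed the filter through the Old and PDX mice. Leaving out 1 mouse, calls between Old and Adult ran from 0 to 4 for the transcription factors, 0 to 3 for the stem and progenitor genes, 1 to 2 for the chemokine list and 0 to 4 for the inhibitors. Ms4a3, Bpi, Cebpe, Angpt1, Anxa1 and Mcemp1 are named outside the rule for named genes, with their values seen.

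Markers of other blood cells were high in some of the same mice. Over all genes tested 4.71% were called higher in Old than in Adult. B and plasma cell genes were higher in Old for 6 of 8 genes, among them Ighm (19.8 CPM in Adult, 269 in Old and 350 in PDX), and their summed level was 27.2 to 57.8 CPM in Adult, 220 to 1117 in Old and 270 to 875 in PDX mice. Classical monocyte genes were higher in Old for 4 of 10, with sums of 90.3 to 129 CPM in Adult, 112 to 864 in Old and 163 to 309 in PDX. Megakaryocyte and platelet genes summed to 172 CPM in O2 and 58.9 in O5, against 10.4 to 43.9 in the other 13 mice. Of 7 of these tested, only Pf4 passed (4.93, SE 1.18, edgeR's adjusted p = 0.0289). Erythroid precursor genes summed to 1212 CPM in O2, 481 in O3 and 491 in P4, against 103 to 336 in the other 12 mice, and 0 of 9 passed. Kupffer cell genes (0 of 10 higher in Old) summed to 4078 CPM in O2 against 495 to 1124 in the other Old mice, 552 to 812 in Adult and 962 to 2036 in PDX. Every PDX mouse was thus above every Adult mouse on this sum, and for 6 of the 10 genes, against 10.5% of all genes tested. For 1 of the 10, Cd163, every PDX mouse was below every Adult mouse (9.34% of all genes). Cell division genes (1 of 7, Mki67) summed to 231 CPM in O2 against 26.0 to 46.7 in the other 14 mice. Eosinophil, basophil and mast cell genes reached 27.2 CPM in O2, 15.9 in P4 and 13.3 in P2, and 0 of 3 tested passed. Leaving out 1 mouse, the count of genes called between Old and Adult ran from 3 to 8 for B and plasma cells (3 without O2 or without any 1 Adult mouse), 0 to 7 for monocytes (7 without O5, 2 without O2, 0 or 1 without any 1 Adult mouse), 0 to 5 for Kupffer cells (5 without O5), 0 to 4 for megakaryocytes and 0 to 3 for cell division (0 without O2 or any 1 Adult mouse). The part of any of these cells in the levels of the 9 genes was not tested.

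Of the 8 hepatocyte markers, 0 were higher and 1, Cyp2e1, was lower in Old. Over all genes tested 4.71% were called higher and 2.07% lower in Old, and 1.76% higher in PDX, all against Adult. Hepatocyte acute phase genes, which follow inflammation, were higher in Old for 3 of 11 genes and in PDX for 6 of 11 (1 to 8 and 2 to 8 leaving out 1 mouse). Their sums were 12036 to 14063 CPM in Adult, 13632 to 56077 in Old and 19967 to 62237 in PDX. O2, the highest Old mouse for 8 of the 9 members, was the lowest Old mouse on that sum, and O5 was the highest. The genes of the list did not move together in O2. In raw counts Saa1 (7782), Saa2 (5060) and Lcn2 (11075) were above all Adult mice there, as were Hp, Orm1, Orm2 and Lbp. Crp (10087) and Hamp (1494) were below all Adult mice, and Fgb and Itih4 lay within their range.

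**Figure D4:**
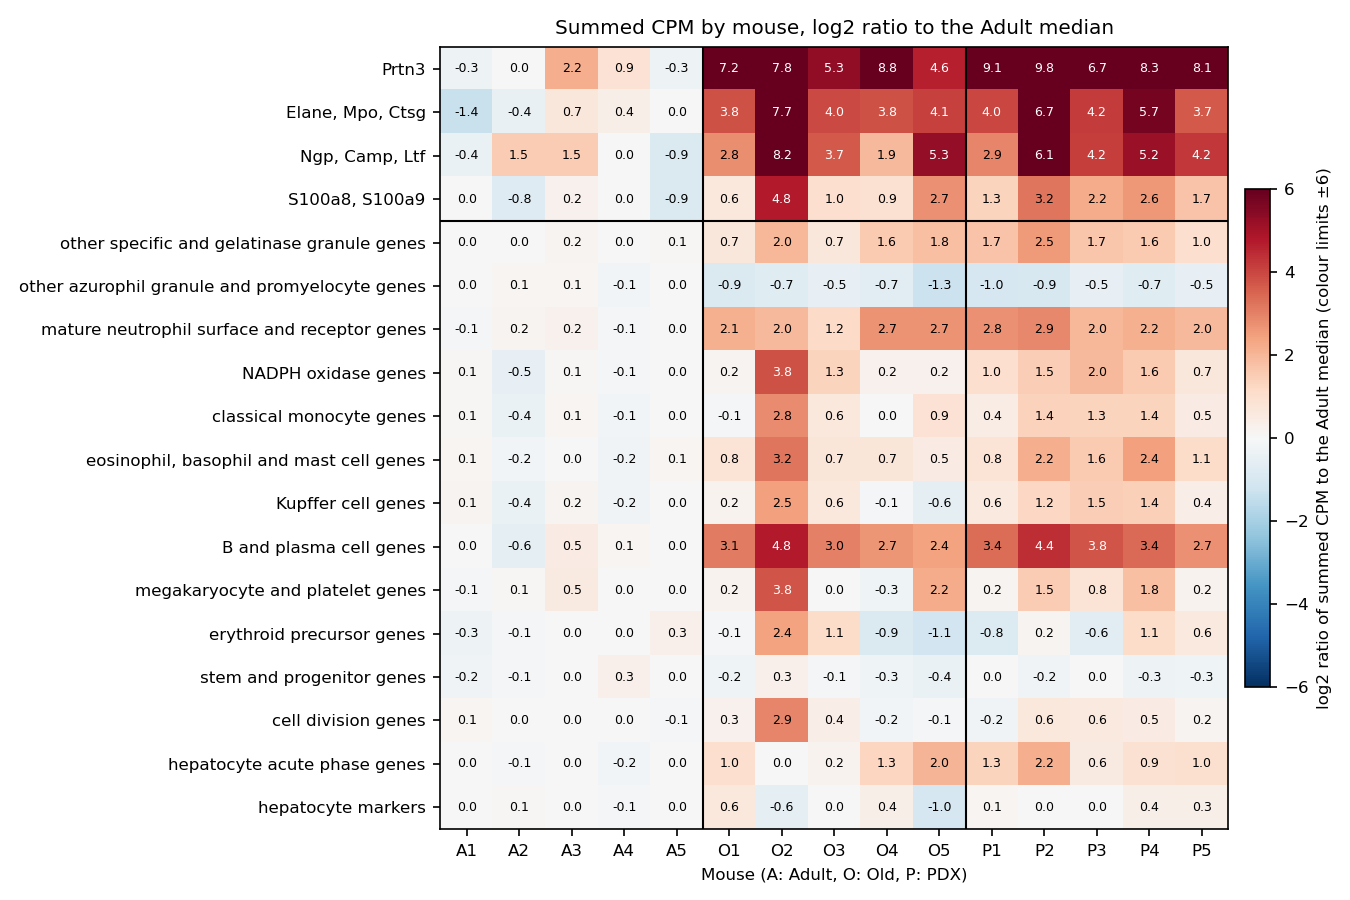
Summed CPM of each set of genes in each mouse as a log2 ratio to the Adult median, with the members in the upper 4 rows and the fixed lists below, colours limited to ±6. O2 reads 2.43 to 4.78 in the rows of monocyte, Kupffer, B and plasma, megakaryocyte and erythroid genes and 0.00 in the acute phase row, whereas Prtn3 reads highest in P2 (9.81) and P1 (9.06). The single acute phase genes did not move together in O2.

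Correlations between members were taken over the 10 Old and PDX mice (log2 CPM), and differences between correlations were not tested. For Prtn3 with Elane Pearson's r was 0.58 (Spearman's rho 0.60, permutation p = 0.0807 and 0.0732, adjusted over all genes 0.410 and 0.789), and 0.23 without O3 and O5, the 2 mice farthest from the median of Prtn3, but 0.61 without O2 and P2, the 2 farthest from that of Elane. Prtn3 had the highest rho with Elane of the 7 other members tested. For Prtn3 with Mpo r was 0.23 (rho -0.05, permutation p = 0.530 and 0.891), and with the other 5 members tested it was between -0.06 and 0.11. S100a9 and S100a8 gave r = 0.98 (rho 0.99, permutation p = 1e-05 for r, the smallest the resamples can give), and 0.98 without O1 and O2. Adjusted over all genes, this p was 0.0263 among the correlations of S100a9 and 0.0527 among those of S100a8. S100a9 with Ngp gave 0.94 (rho 0.94, permutation p = 0.00016, adjusted 0.0444, or 0.0749 among the correlations of Ngp) and 0.89 without the same mice. With Ltf S100a9 gave 0.93 (rho 0.95, permutation p = 0.00017, adjusted 0.0448, or 0.108 among the correlations of Ltf) and 0.85 without them. With Mpo it gave 0.89 (rho 0.76, permutation p = 0.00036, adjusted 0.0481, or 0.161 among the correlations of Mpo) and 0.74 without them. The adjusted values for rho were above 0.05 for all pairs with S100a9.

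Likeness to the mean of each class was taken over all 15 mice, as a description. These include the Adult mice, with few counts, and O2, and their parts in the likeness were not tested. The azurophil mean was of Prtn3, Elane and Mpo, without Ctsg. It was most like Ighm (Pearson r 0.98), the heavy chain of IgM, then Lrmda, Igkc, Cldnd2 and Sirpb1a (0.93 to 0.95). Taken singly, Prtn3 was most like Cldnd2 (0.95, with Ighm at 0.94), Elane most like Ighm (0.95) and Mpo most like Igkc (0.95). The mean therefore does not stand for each of its genes, and the differences between them were not tested. The specific granule genes were most like Cd177 (0.98), then Tlr13, Tspan13, Card9 and Cd300lf (0.94 to 0.96). The calgranulins were most like Cd300lf (0.97), Cd177, Ssbp4, Card9 and Mmp8 (0.96 to 0.97).

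The labels give each mouse a frailty index score, from 0.11 to 0.56 in Old and 0.06 to 0.26 in PDX mice, while all Adult mice scored 0 and were left out. Over the 10 Old and PDX mice no member was related to the score after adjustment. Pearson's r was -0.53 for Prtn3 (rho -0.27, permutation p = 0.115 and 0.440, adjusted p = 0.265 for r) and -0.50 for Elane (rho -0.48, permutation p = 0.139 and 0.162, adjusted p = 0.289 for r). For the other 6 tested r was between -0.17 and 0.11, with adjusted p from 0.739 to 0.995 by the permutation test. Without P1 and O5, the mice farthest from the median score, r was 0.27 for Prtn3 and between -0.66 and -0.44 for the other 7. Of 15808 genes, 0 passed (2854 at an unadjusted p under 0.05 for r and 617 for rho).

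The nearest genes on either side of the members were counted in the same libraries. Cfd, the complement factor D gene 2638 bases beyond Elane, had 20 counts in O2, where Elane was highest, and 123 in O4, where Prtn3 was highest in Old. Ptbp1, on the other side of Prtn3, had 2447 to 7165 counts in every mouse. Lpo, next to Mpo, had at most 1 count, and Mcpt8, a basophil protease gene beside Ctsg, had 15 counts in O2 and 0 to 7 in the other mice. S100a7a and Pglyrp4, which flank the calgranulins, had at most 1 count per mouse.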

How the data were processed

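Liver mRNA of 15 mice (5 Adult, 5 Old, 5 PDX, 1 library each) was analysed. The authors aligned read pairs to mm10 with STAR 2.6.0c and assigned properly paired, uniquely mapped fragments to Ensembl 100 genes by strand with featureCounts of Subread 1.6.2, and the deposited values are raw counts per gene. The authors also deposited variance stabilized log2 values from DESeq2, used here only as an alternative. Reads shared with near-identical genes were thus not counted. Symbols, coordinates and exon lengths come from GENCODE M21 (GRCm38), which is not the annotation used for counting. Symbols matched 55104 of the 55450 gene IDs.

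Groups came from the sample labels. Genes with enough counts (filterByExpr of edgeR 4.0.16 in R 4.3.3, minimum count 10, minimum total 15) numbered 15808. Ctsg was removed by this filter. All 15 mice entered 1 quasi-likelihood fit with TMM scaling, and p-values were adjusted by Benjamini-Hochberg over all 15808 genes, two-sided. Standard errors are on the log2 scale. Correlations used 100000 permutations of log2 CPM (prior count 2). Intervals for summed counts are exact Poisson at 95%, and cover counting error only. The fits were tested on simulated data.

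The members and the gene lists were chosen with earlier results of these data known. Named genes are all members, up to 4 genes per list past the threshold between Old and Adult by size, the gene with the highest mean of each list, and the 5 genes most like each class. Alternatives were DESeq2 1.42.0, RLE scaling, no count filter, fits of the compared groups only, the replicate number as a block, limma 3.58.1 on the deposited log2 values, and leaving out mice. The labels number the mice 1 to 5 within each group, but the mice are different animals and nothing ties equal numbers together. A result on a listed gene is not reported here.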

Additional observations from a re-analysis of the deposited data

Results flagged for a closer look

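Of 27 sets of 5 mice (9 genes in 3 groups), 13 held 1 mouse whose gap to the nearest other mouse passed Dixon's critical value. About 1.35 would be expected for independent, normally distributed values. These are CPM values, some from few counts, of genes in the same mice, so nothing is read from that difference. In 8 of them the mouse was O2, at 6.73 CPM for Elane, 19.9 for Mpo, 2.28 for Ctsg, 51.4 for Ngp, 12.3 for Camp, 42.9 for Ltf, 38.6 for S100a8 and 62.1 for S100a9. The same animal supplied all 8 values, so they are not separate observations. The other 5 were Adult mice with few counts: A3 at 0.638 CPM for Prtn3, 0.137 for Mpo and 0.137 for Camp, A4 at 0.110 for Ctsg and A2 at 0.705 for Ltf. Neither Prtn3 in Old mice nor any of the 9 genes in PDX mice held such a value.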

How the results depend on the processing

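Every direction of the members against Adult held under each alternative run, for Old and for PDX. Genes past the threshold between Old and Adult numbered 1072, and 2641 with DESeq2, 665 without the count filter, 105 with the compared groups only and 651 with limma on the deposited values (327 higher and 324 lower, against 745 and 327), and 156 to 2178 leaving out 1 mouse. Between PDX and Adult they numbered 420, and 1400 with DESeq2, 4529 with the compared groups only, 4004 without O2 and O5, and 166 to 1766 leaving out 1 mouse. Between PDX and Old they numbered 0, 1 with DESeq2, and 0 to 0 leaving out 1 mouse. Of the other granulocyte genes 18 passed between Old and Adult, and 29 with DESeq2, 2 with the compared groups only, 8 with limma, 7 without O2 and O5 and 3 to 22 leaving out 1 mouse. Between PDX and Adult 6 passed, and 22, 31 with the compared groups only, 34 without O2 and O5 and 2 to 26. The cause of these shifts was not tested.

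With the replicate number as a block, 237 genes passed between Old and Adult, 0 between PDX and Old and 316 between PDX and Adult, and 3 of the other granulocyte genes in each of the comparisons with Adult. The mean correlation of deviations of same-numbered mice was -0.17, 0.09 and 0.03 in these comparisons, so the numbers give no pairing.

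Between PDX and Old the sign turned for Elane with the block (0.52 on the log2 scale), with limma (0.35), without O2 (1.45), without P1, P3 or P5 (0.02, 0.11 and 0.17) and without O2 and O5 (1.33). With limma, without O2, and without O2 and O5 it turned for Mpo (0.00722, 1.44 and 1.58), Ngp (0.0822, 1.25 and 1.82), S100a8 (0.0264, 0.68 and 1.39) and S100a9 (0.24, 0.84 and 1.61). Without O2, and without O2 and O5, it turned for Camp (1.20 and 1.33) and Ltf (0.55 and 2.26). The lowest values with 1 mouse left out, all without P2, were -0.45 for Elane, -1.38 for Mpo, -1.77 for Ngp, -1.99 for Camp, -1.79 for Ltf, -1.03 for S100a8 and -0.85 for S100a9, and the highest were those without O2. Leaving out 1 mouse, r with the frailty index ranged from -0.665 to -0.0093 for Prtn3, -0.593 to -0.390 for Elane, -0.325 to 0.130 for Mpo, -0.381 to 0.0893 for Ngp, -0.339 to 0.103 for Camp, -0.233 to 0.440 for Ltf, -0.259 to 0.379 for S100a8 and -0.256 to 0.336 for S100a9, which was -0.000673 on the deposited log2 values. The folds of Elane, Mpo and Camp against Adult are limited by 5 to 8 Adult counts.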
